A study of Rattus norvegicus with 9 samples.

Results

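The genes that govern or mark the passage between an epithelial and a mesenchymal state were followed in rat horizontal basal cells, the quiescent stem cells that the olfactory epithelium holds in reserve. The 10 genes were listed by symbol: the transcription factors Snai1, Snai2, Zeb1, Zeb2 and Twist1, the mesenchymal proteins Vim and Cdh2, and the epithelial genes Cdh1, Epcam and Esrp1. All 10 were present among the 17315 genes of each count table. RNA came from primary cultures of cells from SD rats at passage 7. Cells received PMA (phorbol 12-myristate 13-acetate, which switches on protein kinase C) at 50 nM for 6 h or 12 h, or vehicle alone (0.1% DMSO, labelled time 0). Each group held 3 libraries. No vehicle library is labelled 6 h or 12 h, so PMA and time in culture cannot be told apart.

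In epithelial cells, Cdh1 (E-cadherin) joins neighbouring cells and is tied to the cytoskeleton by catenins. Snail, Zeb and Twist proteins are DNA-binding factors that repress Cdh1 and other epithelial genes, and Snail and Zeb proteins do so through E-box sites, while cells that become mesenchymal switch to Cdh2 (N-cadherin) and to the intermediate filament vimentin (Vim). Epcam is an epithelial adhesion molecule, and Esrp1 and its relative Esrp2 set the epithelial pattern of alternative splicing.

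Promoter sequences were drawn from the RefSeq table of the GRCr8 assembly, which held a promoter for 6 of the 10 genes: Snai1, Zeb1, Zeb2, Twist1, Vim and Epcam. The 250 bases before the start of transcription were searched for the 6-letter E-box CACCTG and its other-strand form CAGGTG. The search matched 3 of the 6, Epcam, Zeb1 and Snai1, against 15.9% of all 33469 promoters in the table, and Zeb2, Twist1 and Vim held no match in this window. The sequences of those 3 are shown because they carry the letters that Snail and Zeb proteins recognise. The promoter of Crb3, an apical polarity gene of the repressed-gene list described further on, is added as an example with several matches: it holds 3, where 0.236% of all promoters hold 3 or more. Patj and Spint2 of the same list also held 3 and Ap1m2 4. Against vehicle, Ap1m2 was called lower at 6 h and higher at 12 h, while Crb3 was higher at both times. Each runs 5′ to 3′ on the gene's strand, with the E-box in capitals.
Epcam, chr6:12649679-12649928, minus strand: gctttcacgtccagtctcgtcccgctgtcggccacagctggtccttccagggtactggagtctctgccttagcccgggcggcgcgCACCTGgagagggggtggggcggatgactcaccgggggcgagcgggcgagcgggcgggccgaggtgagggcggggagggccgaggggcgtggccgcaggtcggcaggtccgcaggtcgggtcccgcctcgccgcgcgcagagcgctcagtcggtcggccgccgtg
Zeb1, chr17:56810654-56810903, minus strand: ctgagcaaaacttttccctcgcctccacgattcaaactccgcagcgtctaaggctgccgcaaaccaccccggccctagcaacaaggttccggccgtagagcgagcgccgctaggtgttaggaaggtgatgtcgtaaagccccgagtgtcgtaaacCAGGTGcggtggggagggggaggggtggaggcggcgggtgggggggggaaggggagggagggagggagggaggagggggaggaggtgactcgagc
Snai1, chr3:176667226-176667475, plus strand: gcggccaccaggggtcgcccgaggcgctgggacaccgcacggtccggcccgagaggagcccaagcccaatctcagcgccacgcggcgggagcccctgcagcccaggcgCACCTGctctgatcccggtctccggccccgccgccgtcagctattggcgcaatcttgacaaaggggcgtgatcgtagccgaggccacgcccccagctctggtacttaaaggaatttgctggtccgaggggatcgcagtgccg
Crb3, chr9:1987504-1987753, plus strand: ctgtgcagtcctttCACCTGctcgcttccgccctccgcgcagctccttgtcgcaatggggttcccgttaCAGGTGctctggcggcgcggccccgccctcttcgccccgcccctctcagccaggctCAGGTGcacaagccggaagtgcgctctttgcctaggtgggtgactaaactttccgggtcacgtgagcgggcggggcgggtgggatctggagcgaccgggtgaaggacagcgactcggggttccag
The E-box began 165 bases before the start in Epcam, 95 bases before it in Zeb1 and 142 bases before it in Snai1. A match to these letters is a description and not a measured site of binding.

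Library totals and cell markers frame the values that follow. Reads in genes numbered 13601635 to 19001819 per library, and 10128 genes passed a filter on low counts (edgeR's filterByExpr with a minimum count of 10). Levels are CPM, the reads of a gene relative to a library total scaled by the trimmed mean of M-values (TMM). Whether libraries of the same group stem from different cultures is not labelled, so a p-value here speaks only of the spread between libraries, which may be technical. Krt5, Krt14 and Tp63, which define horizontal basal cells, were present in every group, and the summed level of 8 such markers was 21562 to 23661 CPM in vehicle, 8604 to 9884 CPM at 6 h and 7898 to 8940 CPM at 12 h. The markers did not all move down: Icam1 averaged 142 CPM in vehicle, 176 CPM at 6 h and 359 CPM at 12 h, and Krt17 6424.5, 6571 and 4361 CPM, while Krt5 averaged 6825, 402 and 489 CPM in the same order. In bulk RNA, fewer cells that express a gene and less RNA of it per cell cannot be told apart. Of 13 fibroblast and pericyte markers 10 stayed under 1 CPM in every library, and 5, among them Col1a2 and Pdgfrb, had no read. Their summed level was 8.07 to 9.67 CPM in vehicle, 2.35 to 3.99 CPM at 6 h and 2.79 to 4.43 CPM at 12 h.

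The epithelial genes Cdh1, Epcam and Esrp1 were higher in PMA-treated cells at both times, while the transcription factor Snai2 was lower at both times. Zeb1 was higher at 6 h and higher again at 12 h. Snai1 and Twist1 passed the test at 12 h only, and reads of Zeb2 appeared at 12 h only. Vim stayed under 1 CPM in each of the 9 libraries, and Cdh2 reached at most 1.38 CPM.

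**Figure D1:**
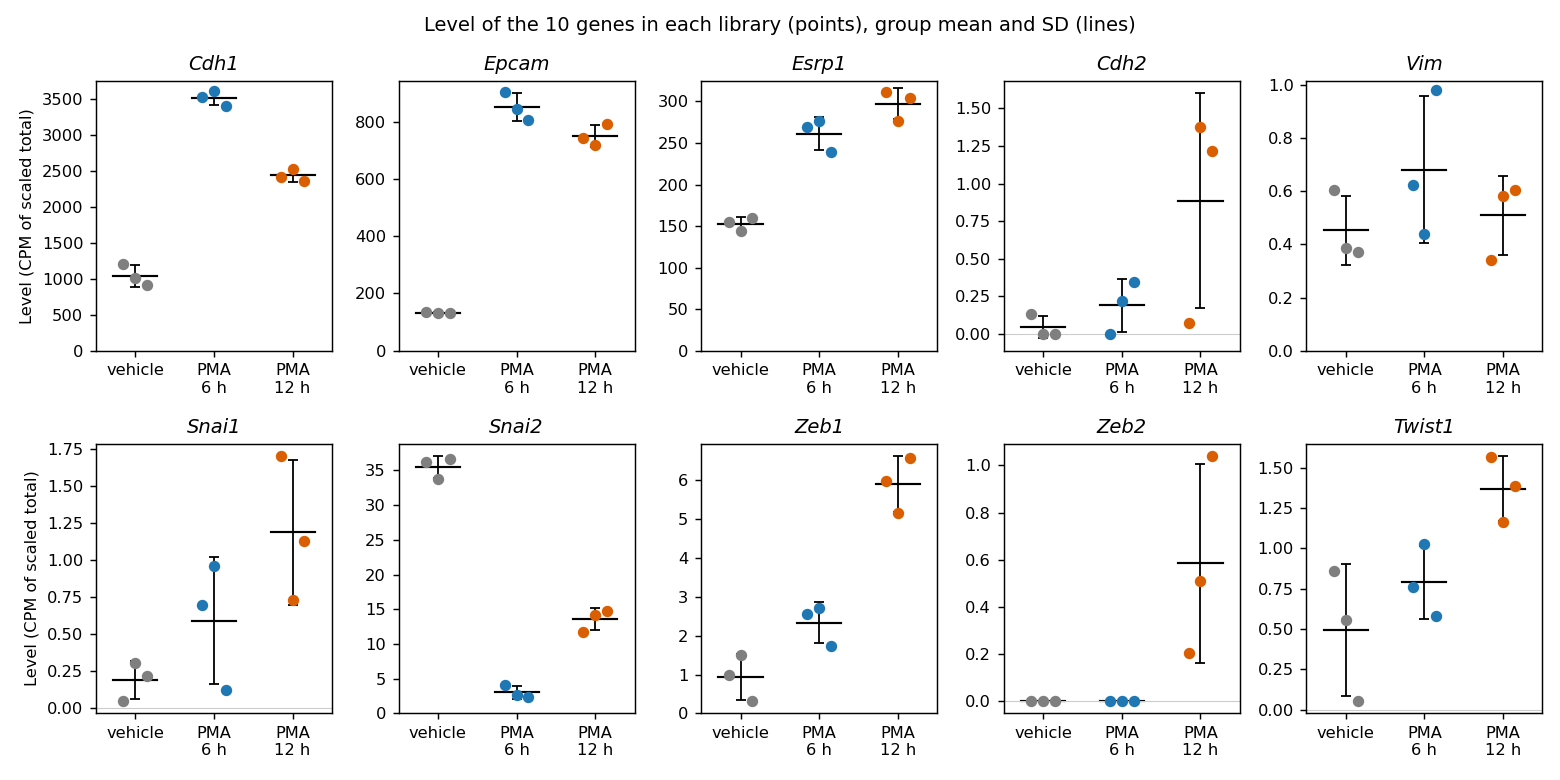
Level of each of the 10 genes in CPM (linear axes, 1 point per library), with the group mean and its SD as lines, for vehicle, PMA 6 h and PMA 12 h. Cdh1, Epcam and Esrp1 lie higher in all 6 PMA libraries than in any vehicle library, and Snai2 lies lower.

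Zeb2, Vim and Cdh2 did not pass the filter on low counts. Of the 7 genes that did, 4 were called higher and 1 lower at 6 h against vehicle, at an adjusted p under 0.05 (edgeR quasi-likelihood, Benjamini-Hochberg). Over all 10128 genes tested, 37.8% were called higher and 39.0% lower in that comparison, so calls were common in these data. At 12 h against vehicle 6 were called higher and 1 lower, where 37.7% and 38.2% of all genes were. Snai1, among those 6, passed the filter only through PMA libraries. At 12 h against 6 h 2 were called higher, 2 lower and 3 neither way, where 25.3% of all genes were called higher and 25.8% lower. Counting all 10 genes, the 3 libraries of each group did not overlap for 5 genes at 6 h against vehicle (79.0% of all genes tested), for 8 at 12 h against vehicle (78.7%) and for 7 at 12 h against 6 h (58.0%). Those shares are over genes that passed the filter, and of the 7 listed genes that passed it 5, 7 and 6 did not overlap in the same comparisons. The typical gene moved by 0.81 on the log2 scale at 6 h and by 0.78 at 12 h against vehicle, as the median of the absolute log2 fold change. Both comparisons share the vehicle libraries.

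Cdh1, the epithelial cadherin, had 1208, 1013 and 909.9 CPM in the 3 vehicle libraries, 3530.1, 3609.7 and 3411 CPM at 6 h, and 2423, 2535 and 2359 CPM at 12 h. The 3 groups were fully separate, with the highest level at 6 h and an intermediate one at 12 h. The log2 fold change was 1.75 ± 0.09 (SE) at 6 h against vehicle (adjusted p = 1.3e-11, edgeR quasi-likelihood, 3.37-fold) and 1.22 ± 0.09 at 12 h against vehicle (adjusted p = 1.6e-09, 2.34-fold). Between the times Cdh1 fell, by 0.53 ± 0.09 on the log2 scale at 12 h against 6 h (edgeR adjusted p = 1.1e-04).

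Epcam, the epithelial adhesion molecule, had 136, 132 and 132 CPM in vehicle, 904, 844 and 807 CPM at 6 h, and 743, 718 and 792 CPM at 12 h. Every PMA library lay far above every vehicle library, and the 6 h and 12 h libraries were close but separate. Its log2 fold change was 2.68 ± 0.08 at 6 h (edgeR adjusted p = 4.8e-15, 6.39-fold) and 2.49 ± 0.08 at 12 h (adjusted p = 1.2e-14, 5.63-fold), both against vehicle. The step between the times was small, -0.18 ± 0.07 at 12 h against 6 h (edgeR adjusted p = 0.0428). It no longer passed when replicate 1 or 2 of PMA 6 h, replicate 1 or 2 of PMA 12 h, or vehicle replicate 2 was left out, with log2 fold changes of -0.19 to -0.14 and adjusted p of 0.0675 to 0.199.

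Esrp1, the epithelial splicing regulator, had 154, 144 and 159.8 CPM in vehicle, 269, 276 and 239 CPM at 6 h, and 311, 276 and 305 CPM at 12 h. The PMA libraries lay above all vehicle libraries. The lowest level at 12 h (276.28 CPM) was barely above the highest at 6 h (276.03 CPM). The log2 fold change was 0.78 ± 0.08 at 6 h (edgeR adjusted p = 7.7e-08) and 0.96 ± 0.08 at 12 h (adjusted p = 5.1e-09) against vehicle. The value at 12 h against 6 h was 0.19 ± 0.08 (95% interval 0.02 to 0.35, adjusted p = 0.0543), which passed without PMA 6 h replicate 2 (0.23), PMA 12 h replicate 2 (0.24) or vehicle replicate 3 (0.19).

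Cdh2, the cadherin of mesenchymal and neural cells, did not pass the filter. It had 3, 0 and 0 reads in vehicle, 0, 3 and 6 reads at 6 h, and 1, 19 and 14 reads at 12 h. PMA 12 h replicate 1 lay within the range of the vehicle libraries, while the other 12 h libraries, at 1.38 and 1.21 CPM, lay above all libraries of vehicle and 6 h. Pooled over libraries, the ratio at 12 h against vehicle was 18.5 (95% exact interval 5.82 to 94.1, counting error only), and with all 13047 genes that had a read in the fit the adjusted p was 0.00362 by edgeR's quasi-likelihood test. The ratio was 28.4 without PMA 12 h replicate 1, 11.9 without vehicle replicate 2, and at least 11.9 without vehicle replicate 1, which held all 3 vehicle reads. At 6 h against vehicle the ratio was 4.32 (interval 1.08 to 24.8), and the edgeR test without a filter did not call it (adjusted p = 0.225; 0.0395 without vehicle replicate 1). That ratio was 2.33 without PMA 6 h replicate 3 and 2.78 without vehicle replicate 2. Between the times, 12 h over 6 h, the ratio was 4.28 (interval 2.01 to 10.2; 7.95 without PMA 6 h replicate 3 and 6.57 without PMA 12 h replicate 1), with an edgeR adjusted p of 0.105, and of 0.0319 without PMA 12 h replicate 1. Set against Cdh1 within each library, with no correction for gene length, Cdh2 made up at most 0.0544% of the reads of both cadherins.

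Vim, the filament protein used as a mesenchymal marker, had 14, 9 and 7 reads in vehicle, 9, 6 and 17 reads at 6 h, and 5, 8 and 7 reads at 12 h. All 9 libraries were under 1 CPM and the 3 groups overlapped. Without a filter its log2 fold change was 0.58 ± 0.71 at 6 h and 0.14 ± 0.74 at 12 h against vehicle, and -0.44 ± 0.73 at 12 h against 6 h, with adjusted p of 0.5, 0.896 and 0.679 in the same order by edgeR. Each of these differences was smaller than its SE.

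Snai2 (Slug), a zinc-finger repressor of the Snail family, had 36.3, 33.7 and 36.6 CPM in vehicle, 4.08, 2.72 and 2.31 CPM at 6 h, and 11.8, 14.2 and 14.8 CPM at 12 h. The 3 groups were fully separate, with the lowest level at 6 h and a partial return at 12 h. At 6 h against vehicle Snai2 was 11.8-fold lower (log2 fold change -3.56 ± 0.18, edgeR adjusted p = 9.1e-12). At 12 h it was still lower than in vehicle (-1.39 ± 0.16, adjusted p = 3.5e-07), although it was 4.49-fold higher at 12 h than at 6 h (2.17 ± 0.19, adjusted p = 7.9e-08).

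Snai1 (Snail), its relative, had 1, 7 and 4 reads in vehicle (0.0431, 0.301 and 0.212 CPM), 10, 13 and 2 reads at 6 h (0.692, 0.955 and 0.116 CPM), and 25, 10 and 13 reads at 12 h (1.70, 0.726 and 1.13 CPM). The 12 h libraries lay above all vehicle libraries, whereas PMA 6 h replicate 3 lay within the vehicle range. Snai1 rose at 12 h against vehicle (log2 fold change 2.64 ± 0.73, edgeR adjusted p = 0.00353). None of the vehicle libraries held 10 reads, so Snai1 passed the count filter only through PMA libraries. Its call against vehicle is thus not independent of that filter. At 6 h the value was 1.58 ± 0.80 with an adjusted p of 0.0804 by edgeR, and 2.10 with an adjusted p of 0.0156 without PMA 6 h replicate 3. At 12 h against 6 h it was 1.06 ± 0.66 (adjusted p = 0.194).

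Within each library, Snai1 made up 0.119% to 0.884% of the reads of Snai1 and Snai2 together in vehicle, 4.76% to 26% at 6 h and 4.85% to 12.6% at 12 h. These shares do not depend on how library totals are scaled, and they are not corrected for gene length. All 6 PMA libraries had a larger Snai1 share than any vehicle library. A share also rises when Snai2 falls. PMA 6 h replicate 3 had 0.116 CPM of Snai1, within the vehicle range, and 2.31 CPM of Snai2. The interval of PMA 6 h replicate 3, which had 2 Snai1 reads, ran from 0.582% to 16.2% (exact binomial, 95%) and met the upper end of the vehicle intervals, at 1.81%.

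**Figure D2:**
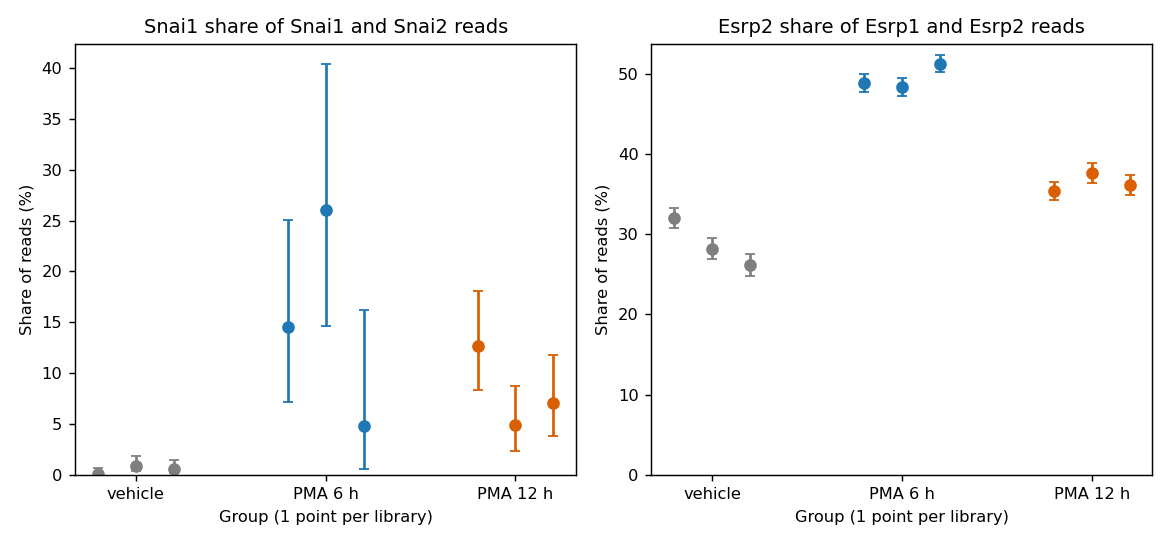
Share of reads in percent (1 point per library, bars are 95% exact binomial intervals for counting error) taken by Snai1 among Snai1 and Snai2 reads (left) and by Esrp2 among Esrp1 and Esrp2 reads (right), for vehicle, PMA 6 h and PMA 12 h. The Snai1 share is under 1% in the 3 vehicle libraries and 4.76% to 26% in the 6 PMA libraries, and the Esrp2 share is highest at 6 h.

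Zeb1, a zinc-finger and homeodomain repressor, had 0.992, 1.504 and 0.319 CPM in vehicle, 2.56, 2.72 and 1.73 CPM at 6 h, and 5.99, 5.16 and 6.59 CPM at 12 h. The groups did not overlap, and the order was vehicle, 6 h and 12 h. Its log2 fold change was 1.27 ± 0.40 at 6 h (edgeR adjusted p = 0.00889) and 2.61 ± 0.39 at 12 h (adjusted p = 9.3e-06) against vehicle, and 1.34 ± 0.37 at 12 h against 6 h (adjusted p = 0.00544). The call at 6 h was lost when library totals were used without scaling (0.73, adjusted p = 0.104). In the GRCr8 annotation Zeb1 overlaps 2 other annotated loci, and the counts, which do not part strands, cannot separate reads shared with them.

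Zeb2, its relative, had no read in vehicle or at 6 h and 3, 7 and 12 reads at 12 h (0.204, 0.508 and 1.04 CPM). The 12 h libraries were thus the only ones of the 9 with a read. Against a floor of 3 reads over the vehicle group, which is 0.0459 CPM, Zeb2 was at least 12.0-fold higher at 12 h, and at least 7.64-fold to 16.3-fold higher when any 1 of the 6 libraries was left out. Leaving out vehicle replicate 1 or 2, or replicate 3 of PMA 12 h, took the bound below 8-fold. Against the floor at 6 h, 0.0661 CPM, the pooled Zeb2 level was at least 8.32-fold higher at 12 h (5.15-fold without PMA 6 h replicate 3 and 5.31-fold without PMA 12 h replicate 3). Without a filter edgeR called both differences (adjusted p = 0.00131 against vehicle and 0.00545 against 6 h). Zeb2 overlaps an antisense gene, Zeb2-as1, in the GRCr8 annotation, and reads of both cannot be told apart here.

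Twist1, a basic helix-loop-helix factor, had 0.863, 0.558 and 0.0531 CPM in vehicle, 0.761, 1.03 and 0.578 CPM at 6 h, and 1.56, 1.16 and 1.39 CPM at 12 h. The vehicle and 6 h libraries overlapped, and the 12 h libraries lay above all others. At 6 h the log2 fold change was 0.61 ± 0.61 (edgeR adjusted p = 0.372; 1.25 without vehicle replicate 1). At 12 h against vehicle Twist1 rose by 1.42 ± 0.58 on the log2 scale (edgeR adjusted p = 0.0354), and at 12 h against 6 h the value was 0.81 ± 0.58 (adjusted p = 0.262). The call at 12 h was lost with upper-quartile scaling (1.15), without scaling (0.84), and when vehicle replicate 2 (1.5), vehicle replicate 3 (0.94), PMA 12 h replicate 1 (1.32) or PMA 12 h replicate 3 (1.42) was left out. It was 2.06 without vehicle replicate 1. Tested for any difference among the 3 groups, Twist1 did not pass (edgeR adjusted p = 0.0838), and Snai1 did (adjusted p = 0.00985).

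**Figure D3:**
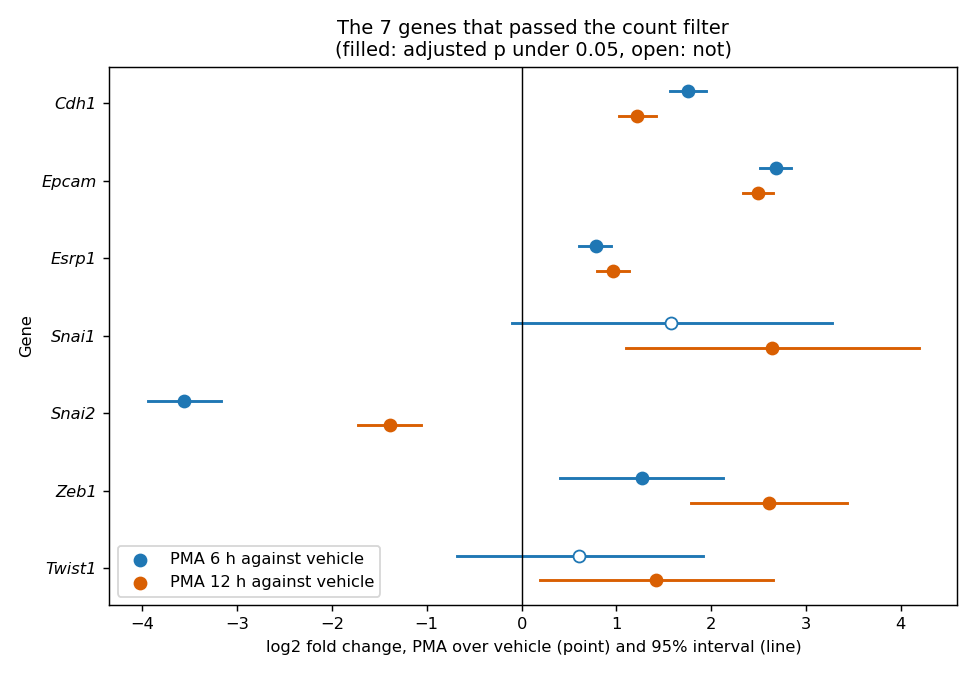
log2 fold change over vehicle at PMA 6 h and PMA 12 h for the 7 genes that passed the filter, with 95% intervals as lines and filled points for an adjusted p under 0.05. Cdh1, Epcam and Esrp1 lie right of 0 and Snai2 left of 0 with narrow intervals, while the intervals of Snai1, Zeb1 and Twist1 are wide.

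Genes that work with or under these factors were followed in lists. Among other factors of the transition, 5 of the 9 in the tables were tested. At 6 h 3 were higher (Sox4, Snai3 and Tcf4) and 1 lower (Tcf3), where 37.8% of all genes were called higher and 39.0% lower. The median log2 fold change was 1.38 (0.70 with a filter of 1 CPM, which drops Snai3). At 12 h 2 were higher and 2 lower, where 37.7% and 38.2% of all genes were. The median was then 1.64 (0.55 with that filter, and 0 without PMA 12 h replicate 3). With 5 genes, these counts are no result about the list. Sox4, a factor that promotes the transition in other epithelia, averaged 816 ± 81.6 CPM at 6 h and 493 ± 48.1 CPM at 12 h, against 46.8 ± 2.68 CPM in vehicle (SD, n = 3 each). Snai3, the remaining Snail relative, had no vehicle read and 43 reads over the 6 h libraries, at least 20.6-fold above the vehicle floor (13.3-fold without vehicle replicate 1 or 2), and 2 reads over the 12 h libraries. Snai3 passed the count filter only through the 6 h libraries, so its call and its part in the counts are not independent of it. Tcf3, the E2A partner of Twist1, fell by 1.59 ± 0.12 on the log2 scale at each time (edgeR adjusted p = 2.2e-09 at 6 h and 2.9e-09 at 12 h), and its relative Tcf4 rose by 1.64 ± 0.17 at 12 h (adjusted p = 1.1e-07).

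Factors that keep the epithelial identity were mostly higher. Of 9 tested, 8 rose and 1 fell at 6 h, where 37.8% of all genes were called higher and 39.0% lower. The median log2 fold change was 4.18, where all genes tested had -0.03. At 12 h 8 rose and 0 fell, where 37.7% and 38.2% of all genes were called (median 3.48, where all genes had -0.02). The exception was Grhl2, named after its values were seen, with a log2 fold change of -0.34 at 6 h and -0.12 at 12 h (adjusted p = 0.241). With upper-quartile scaling or none, 7 rose and 1 fell at 12 h, and without scaling 6 rose and 1 fell at 6 h. Ovol1, a repressor of Zeb1 in other epithelia, averaged 454 ± 34.9 CPM at 6 h and 151 ± 19.8 CPM at 12 h, against 6.74 ± 0.791 CPM in vehicle. Grhl3, a grainyhead factor of epithelial differentiation, averaged 561 ± 51.8 CPM at 6 h against 13.2 ± 1.02 CPM in vehicle. Elf3, an epithelial ETS factor, averaged 1010.4 ± 153 CPM at 12 h against 47.2 ± 3.39 CPM in vehicle. Foxa1, a forkhead factor that supports Cdh1 expression in other epithelia, rose by 4.58 ± 0.37 at 6 h and 4.26 ± 0.37 at 12 h on the log2 scale (5.50 and 5.18 without vehicle replicate 1).

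Splicing regulators listed beside Esrp1 were called in both directions. All 6 were tested, and 3 rose and 3 fell at 6 h (median 0.65), where 37.8% of all genes were called higher and 39.0% lower. At 12 h 3 rose and 2 fell (median 0.43, and -0.15 without scaling), where 37.7% and 38.2% of all genes were. With 6 genes, these counts are no result about the list. Esrp2, the relative of Esrp1, averaged 256 ± 3.75 CPM at 6 h and 169.7 ± 2.95 CPM at 12 h, against 61.9 ± 9.34 CPM in vehicle. Esrp2 made up 26.1% to 32.0% of the reads of both Esrp genes in vehicle, 48.3% to 51.3% at 6 h and 35.3% to 37.6% at 12 h, and the 3 groups did not overlap. Rbm47, an RNA-binding protein of epithelial cells, rose by 2.93 ± 0.08 at 6 h and 2.02 ± 0.08 at 12 h. Mbnl1, a splicing factor linked to differentiation, fell by 1.66 ± 0.14 at 6 h, and the splicing factor Srsf1 fell by 0.92 ± 0.09 at 12 h. Ptbp1, higher at both times (1.62 and 0.90), and Rbfox2, lower at 6 h (-0.31), completed the counts and were named after their values were seen.

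Most partners of Cdh1 and Epcam in junctions were higher as well. Of 10 catenins and cadherin partners tested, 8 rose and 1 fell at 6 h (median 1.84), where 37.8% of all genes were called higher and 39.0% lower. At 12 h 9 rose and 1 fell (median 1.75), where 37.7% and 38.2% of all genes were. The 1 that fell at both times was Pvrl1 (nectin-1), named after its values were seen (-0.64 at 6 h and -1.98 at 12 h). At 6 h 2 fell without either vehicle replicate 3 or PMA 6 h replicate 3, and with upper-quartile scaling or none. Without scaling, 8 rose at 12 h. The nectin Pvrl2 rose by 2.94 ± 0.09 at 6 h, and its actin-linking partner Mllt4 (afadin) by 2.42 ± 0.07 at 12 h. Cldn7, a claudin that binds Epcam, rose by 5.04 ± 0.50 at 6 h and 4.23 ± 0.53 at 12 h from few vehicle reads (5.72 and 4.91 without vehicle replicate 3). Only 2 of 11 other cadherins passed the filter, and both rose at both times, against the same shares over all genes. Cdh3 (P-cadherin), the cadherin of basal epithelial layers, averaged 735 ± 96.2 CPM at 6 h and 859 ± 44.7 CPM at 12 h, against 408 ± 38.4 CPM in vehicle. Cdh13, a cadherin without a cytoplasmic tail, rose by 0.84 ± 0.08 at 6 h and 0.52 ± 0.08 at 12 h (-0.06 at 12 h without scaling).

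Epithelial genes known elsewhere as targets of repression by Snail or Zeb proteins were higher as a list. Of 16 tested, 13 rose and 1 fell at 6 h (median 1.69), where 37.8% of all genes were called higher and 39.0% lower. At 12 h 15 rose and 1 fell (median 1.35), where 37.7% and 38.2% of all genes were. The count that fell at 6 h was 2 without vehicle replicate 2 or replicate 3 of PMA 6 h, and likewise when replicate 1 or 2 of PMA 12 h was left out. With upper-quartile scaling, 12 rose and 3 fell at 6 h and 11 rose and 1 fell at 12 h. Without scaling, 10 rose and 4 fell at 6 h and 10 rose and 5 fell at 12 h. The gene that fell at 12 h was the keratin gene Krt19 (-1.94) and the one at 6 h Ap1m2 (-0.30), a sorting adaptor subunit, both named after their values were seen. Ap1m2 was called higher at 12 h (0.39). Crb3, the polarity gene shown with its promoter, averaged 90.4 ± 12.8 CPM at 6 h and 85.5 ± 14.5 CPM at 12 h, against 13.3 ± 1.83 CPM in vehicle. Mal2, a protein of apical transport, rose by 2.67 ± 0.15 at 6 h and 3.16 ± 0.15 at 12 h. The membrane proteases St14 and Prss8 rose too, St14 by 2.54 ± 0.08 at 6 h and Prss8 by 3.49 ± 0.12 at 12 h. Of the 11 genes of this list with a promoter in the RefSeq table, 9 held an E-box in the 250 bases before the start and 6 held 2 or more, where 15.9% and 1.84% of all promoters did. These 11 include Muc1 and Dsp, which were not among the 16 tested, and Patj, which was tested under the symbol Inadl. The list was assembled from genes known as targets of E-box repressors, so its E-boxes are not independent of how it was chosen.

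Of 13 mesenchymal proteins tested other than Vim and Cdh2, 5 rose and 5 fell at 6 h (median -0.66, and 0.12 without vehicle replicate 3), and 4 rose and 5 fell at 12 h (median -0.37). These counts lie near the shares over all genes tested, 37.8% higher and 39.0% lower at 6 h and 37.7% and 38.2% at 12 h, and are no result about the list. With upper-quartile scaling, or with none, 8 fell at 12 h. Among those that rose were matrix metalloproteases, which cut the extracellular matrix. Mmp2 averaged 2.38 ± 1.19 CPM at 6 h and 1.14 ± 0.566 CPM at 12 h, against 0.261 ± 0.130 CPM in vehicle, and Mmp14, which activates it, 664 ± 19.1 CPM at 6 h against 174.5 ± 19.0 CPM in vehicle. Tnc (tenascin C), a matrix glycoprotein, fell by 1.79 ± 0.51 at 6 h and fell by 2.21 ± 0.54 at 12 h, and Sparc, a matrix-binding glycoprotein, fell by 2.35 ± 0.78 at 12 h (edgeR adjusted p = 0.0112; -1.86 and not called without PMA 12 h replicate 1, -3.17 without PMA 12 h replicate 3). Both were low: Tnc averaged 1.54 CPM in vehicle, 0.438 CPM at 6 h and 0.334 CPM at 12 h, and Sparc 1.33, 0.718 and 0.269 CPM. Others called, named after their values were seen, follow. The integrin subunit Itga5 rose at both times (1.51 and 1.57), and fibronectin, Fn1, and the receptor kinase Axl fell at both (Fn1 -0.66 and -1.16, Axl -1.03 and -0.37). The matrix cross-linking enzyme Loxl2 was lower at 6 h (-1.38) and higher at 12 h (1.07). The hyaluronan receptor Cd44 rose (0.38) and the calcium-binding protein S100a4 fell (-1.55) at 6 h. The summed fibroblast and pericyte markers given above moved down with Tnc and Sparc, and their part in these values was not tested.

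**Figure D4:**
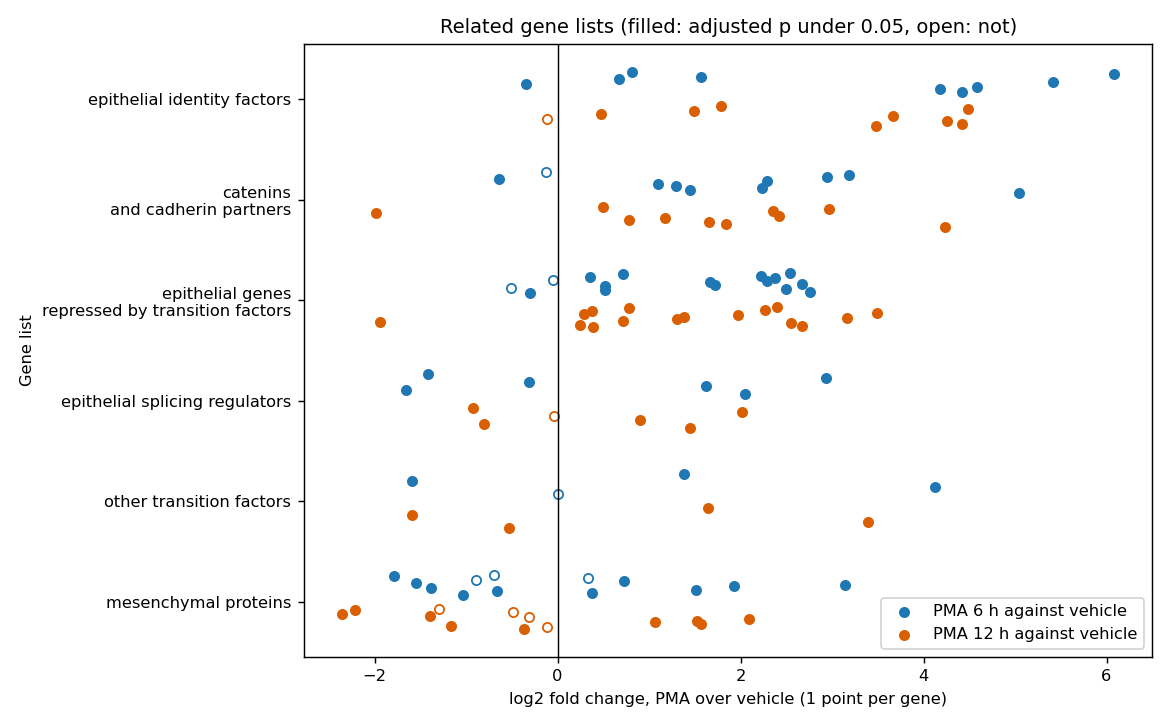
log2 fold change over vehicle at PMA 6 h and PMA 12 h for each tested gene of 6 lists (1 point per gene, filled where the adjusted p is under 0.05; Snai3, with no vehicle read, is not drawn). Points of the epithelial identity factors lie mainly right of 0, while the mesenchymal proteins lie on both sides. With TMM scaling 8 of 9 identity factors were higher at each time, where 37.8% of all genes were at 6 h and 37.7% at 12 h.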

How the data were processed

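RNA-seq counts per gene, as deposited, were used for all 9 libraries, 3 in each of the 3 groups. The authors aligned reads to rn6 with STAR 2.7.5b, per the submitters' processing notes; the annotation they counted on was not given in the sources used here. The unstranded counts were used, and the 4 summary lines of each table were left out. The table of DESeq2-normalized values that was also deposited was not used here. Groups and replicate numbers come from the sample titles.

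Counts were fitted in R 4.3.3 with edgeR 4.0.16 (TMM, filterByExpr with a minimum count of 10, robust quasi-likelihood, 10128 genes), with group as the only term. Comparisons were tested by its F test, with p-values adjusted after Benjamini and Hochberg over all genes tested, at 0.05, and SEs follow from the F statistics. limma 3.58.1 (voom), DESeq2 1.42.0, other scalings, other filters, the libraries of 1 comparison alone, a replicate block and leaving out each library were alternatives, and the script was tested on simulated data. The 10 genes and all lists were chosen with earlier results of these data known. From each of 8 lists at most the 3 called genes with the largest log2 fold change at each time are named, and others are said to be named after their values were seen; a few genes counted in the lists are not reported here by name. Where a group had no read of a gene, 3 counts in the pooled group served as its floor. A bound sets the pooled level of the other group against that floor and leaves out the counting error of that level. Neither floors nor intervals cover more than counting error. Between replicates the chi-square per degree of freedom was 3.86 to 28.4, so no library repeated another. E-boxes came from the RefSeq promoter table of GRCr8, a build other than that of the counts.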

Additional observations from a re-analysis of the deposited data

How the results depend on the processing

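The counts of the 10 genes called higher or lower kept within 1.5 times of their values at 6 h and at 12 h against vehicle under each alternative run. At 12 h against 6 h, 2 genes were called lower, Cdh1 and Epcam. That number was 1 with no filter on low counts, with the replicate block and with only the 6 libraries compared, and it ranged from 1 to 2 when each library was left out. In each of these settings the lost gene was Epcam (log2 fold change -0.18, adjusted p of 0.0681, 0.0708 and 0.0537 for the first 3 by edgeR). Over the 7 genes tested, 355 alternative values kept direction and call, 15 lost the call, 4 gained it and 0 changed direction; those that changed are given beside each gene. Replicate numbers were not taken to pair libraries: deviations from the group mean correlated at -0.11 to 0.03 between libraries of the same number and at -0.07 to 0.09 between others. The replicate block changed no other call among the 7.

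Scaling bears on all levels. Upper-quartile scaling moved the median of all genes by -0.26 at 6 h and -0.27 at 12 h (log2), with 3023 higher and 4837 lower calls at 6 h and 2963 and 4827 at 12 h, and library totals alone moved it by -0.54 and -0.58, with 2277 and 5855 calls at 6 h and 2120 and 6021 at 12 h. With TMM there were 3831 and 3945 calls at 6 h and 3818 and 3864 at 12 h. Leaving out single libraries in the fit without a filter, for Zeb2, Vim and Cdh2, was added after seeing the data. Depth limits Snai1, Zeb2, Twist1, Vim and Cdh2, with at most 25 reads in any library. The cause of these changes was not tested.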

Other observations

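Of 17 genes tested that act on the turnover or activity of Snail proteins or as their corepressors, 9 were higher and 5 lower at 6 h against vehicle, where 37.8% and 39.0% of all genes were (median log2 fold change 0.22, and -0.03 with upper-quartile scaling or -0.31 with none), and 5 were higher and 7 lower at 12 h, near the 37.7% and 38.2% of all genes (median -0.21). Upper-quartile scaling gave 12 lower calls at 12 h, and library totals alone gave 2 higher and 13 lower. Fbxo11, an F-box protein that marks Snail proteins for degradation, averaged 901 ± 28.5 CPM at 6 h and 477 ± 72.3 CPM at 12 h, against 68.4 ± 7.35 CPM in vehicle (SD, n = 3 each). Gsk3b, the kinase that phosphorylates Snai1, rose by 1.65 ± 0.08 at 6 h and 1.56 ± 0.08 at 12 h on the log2 scale. Kdm1a, a histone demethylase recruited by Snai1, rose by 1.25 ± 0.08 at 6 h, and Btrc, the F-box protein that recognises phosphorylated Snai1, fell by 0.98 ± 0.15 at 12 h. Named after their values were seen, the others lower at 6 h were Pak1, Ajuba, Limd1 and Ezh2 (-0.82 to -0.43) beside Btrc (-1.16), and the others higher at 12 h were Mdm2, Ctbp2 and Kdm1a (0.21 to 0.56; Kdm1a -0.02 without scaling).

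The genes whose log2 CPM ran most alike over the 9 libraries, which fall into 3 groups, are given by Pearson's r as a description. For Epcam they were Pard6b, a polarity protein (0.9996), and Ier5, an immediate early gene (0.9992), and for Cdh1 Nabp1 and Zc3hav1 (0.998 each). Snai2 ran most like Sertad4 (0.997) and Strada (0.994), and Esrp1 like Wbp2 and Spg21 (0.994 each). For Zeb1 they were Qsox1 (0.985) and Rn5-8s, a ribosomal RNA gene (0.983) that averaged 1.197 CPM in vehicle, 4.32 CPM at 6 h and 15.7 CPM at 12 h. Snai1 ran most like Pold4 (0.961) and Qpctl (0.935), and Twist1 like Nudt4 (0.961) and Cpn1 (0.952). Markers of other cell types were few: 9 of 10 neuronal markers and 8 of 9 endothelial and glial markers stayed under 1 CPM in every library. Their summed levels were 0.777 to 1.07 CPM and 0.319 to 0.863 CPM in vehicle, 1.10 to 1.54 CPM and 0.881 to 1.52 CPM at 6 h, and 1.56 to 2.98 CPM and 2.11 to 4.16 CPM at 12 h. Of 4 sustentacular and gland markers, 3 had no read, and the sum, all from Sox9, was 16.6 to 18.9 CPM in vehicle, 65.8 to 77.8 CPM at 6 h and 115 to 151 CPM at 12 h. Of 8 immune markers, 6 stayed under 1 CPM and Ptprc and C1qa had no read, and the sum, mainly from Cd68, was 19.0 to 21.9 CPM in vehicle, 68.5 to 71.2 CPM at 6 h and 81.7 to 93.2 CPM at 12 h. Zeb1, Zeb2, Twist1 and Cdh2 moved up at 12 h alongside these sums, and the part of other cells in their values was not tested.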
